A study of Mus musculus with 6 samples.

Results

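Axon guidance ligands and receptors were followed in neuro2a (N2a) cells, a mouse neuroblastoma line, after knockdown of the transcription factor NF-Y. The genes were the semaphorins of classes 3 to 7, the plexins, the neuropilins Nrp1 and Nrp2, the ephrins and Eph receptors, the Slits and Robos, and the netrins with their receptors Dcc, Neo1 and the Unc5 group. Members were taken by their symbols, a rule that uses no measured value but was set with earlier results of these data known. Of the 20145 genes with a probe on the array, 74 matched, and 58 of these were tested, among 16514 genes tested in all. The others were too dim, apart from Slit1, which was left out because of an outlier-marked spot. Unc50 and Unc5cl matched by spelling only and are not guidance receptors. Leaving them out gave 72 genes, of which 57 were tested.

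The series held 6 single-colour arrays. In the 3 control samples, labelled Vector knockdown, the N2a cells received an empty vector. In the 3 knockdown samples, labelled NFYA and NFYC knockdown, they received miR RNAi vectors that target the NF-YA and NF-YC subunits. The vectors were delivered by transient transfection, so that a culture can hold cells without them. Nothing in the sources used here says that the arrays of a group came from separate cultures, so the p-values measure the spread between these arrays, which may be technical.

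Semaphorins, ephrins, Slits and netrins are the classical cues that attract or repel growing axons. Secreted class 3 semaphorins act through neuropilins joined to plexins, most other semaphorins bind plexins directly, ephrins bind Eph receptor kinases on the facing cell, Slits bind Robo receptors, and netrins bind Dcc, neogenin (Neo1) or Unc5 receptors. NF-Y is a trimer of NF-YA, NF-YB and NF-YC that binds CCAAT motifs in promoters. The comparison asked how the expression of this cue and receptor set differed between cells with and without the NF-Y knockdown.

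Levels are given as log2 of the processed signal minus the 75th percentile of its array, for the brightest probe of each gene, and can be compared between arrays but not between genes. A gene passed the test at a limma adjusted p below 0.05 over all probes, and was called when it also differed by more than 1.5-fold, which is 0.585 on the log2 scale. The targeted genes were lower in the knockdown. Nfya went from 0.17 ± 0.04 to -0.59 ± 0.07 and Nfyc from 3.97 ± 0.03 to 2.17 ± 0.04 (log2 level, mean ± SD, n = 3 arrays), changes of -0.76 and -1.81. Nfyb, which was not targeted, rose by 0.83. All 17 neuronal and neuroblastoma markers were well above background on all 6 arrays. At any size of change 5 of the 17 fell and 3 rose, beside 15.7% of all genes tested in each direction. Mycn and Th were called lower, with changes of -0.69 and -0.62, beside 4.99% of all genes tested. No marker of this list was called higher, beside 3.91% of all genes tested. Of the markers of other cell types, 2 of 5 for astrocytes, 5 of 5 for oligodendrocytes, 3 of 5 for microglia, 2 of 5 for endothelium and 4 of 6 for fibroblasts were well above background on all arrays, while Slc1a2, S100b, Cx3cr1, Cdh5, Col3a1 and Lum were on none. Summed over each list, in units of the array's 75th percentile, oligodendrocyte markers ran from 1.36 to 1.53 on control arrays and from 0.993 to 1.06 on knockdown arrays, and endothelial markers from 13.72 to 15.26 and from 12.04 to 13.21. Astrocyte markers ran from 0.191 to 0.218 and from 0.164 to 0.183, microglial markers from 8.28 to 9.77 and from 8.24 to 9.69, and fibroblast markers from 0.230 to 0.275 and from 0.263 to 0.305. The part of these markers in the results was not tested. In bulk RNA, fewer cells expressing a gene and less of its RNA per cell cannot be told apart.

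The guidance genes split in both directions. Sema3c, Sema3e, Sema4a and Plxna3 were called lower, which is 6.90% of the 58 tested, beside a background of 4.99% of all genes tested. Efnb2, Efnb3 and Plxnb1 were called higher, 5.17% beside a background of 3.91%. In either direction the background was 8.9% called and 31.4% passed at any size. At any size of change, 11 members fell (19.0%) and 9 rose (15.5%), beside 15.7% of all genes tested in each direction, and 38 did not pass. These shares were near the background, and the median change of the members, 0.03, was near that of all genes, 0.01. The groups of arrays did not overlap for 13 members with lower and 16 with higher knockdown values, 22.4% and 27.6%, beside 27% and 27.7% of all genes.

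**Figure D1:**
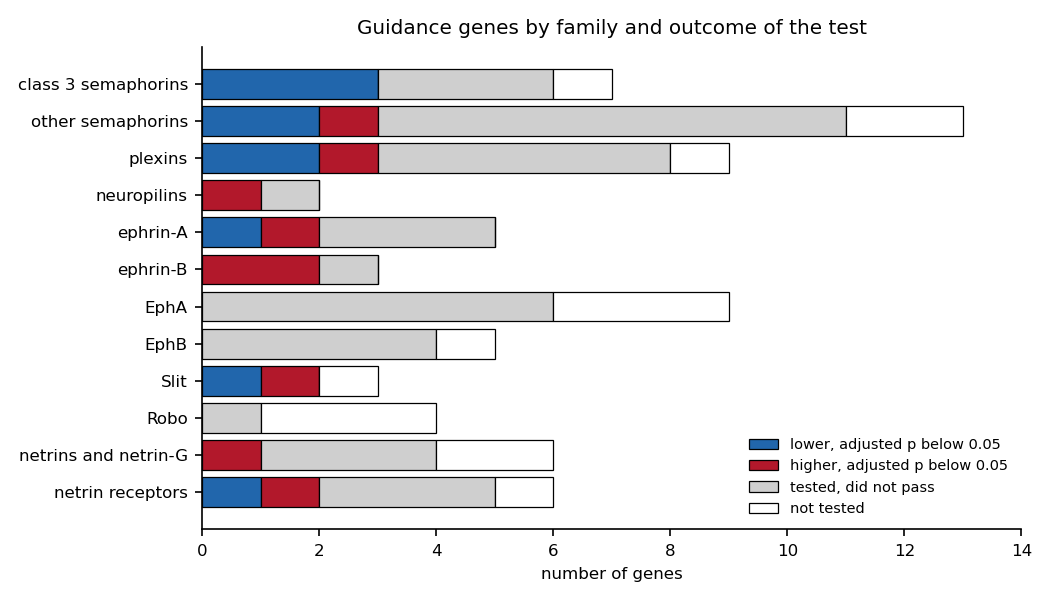
Number of guidance genes in each family, coloured by the outcome of the limma test between 3 knockdown and 3 control arrays (blue lower, red higher, grey tested but not passed, white not tested); the 2 genes that matched by spelling only are left out. All 3 class 3 semaphorins that passed were lower, both ephrin-B genes that passed were higher, and neither EphA nor EphB held a gene that passed.

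By role, 31 of the 37 ligand genes were tested, of which 7 fell (22.6%) and 6 rose (19.4%). Of the 35 receptor genes, 26 were tested, 3 fell and 3 rose (11.5% each). By family, 5 of the 17 semaphorins tested fell (29.4%) and 1 rose (5.88%), and 1 of the 8 ephrins fell (12.5%) and 3 rose (37.5%). None of the 10 Eph receptors tested passed in either direction, beside 31.4% of all genes tested. Only 7 of these 10 were well above background on all arrays. The background of 15.7% in each direction stands beside all counts by role or family. The difference between families was not tested.

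Since NF-Y binds CCAAT motifs, the 250 bases before each start site were searched for CCAAT on either strand (CCAAT or ATTGG), using the promoter sequences of RefSeq on the mouse assembly GRCm38.p6. Windows were found for 64 of the 74 members, and 21 of these genes (32.8%) held the motif, beside 37.5% of all 27025 genes of the table. Counted by window, it was in 23 of 80 windows of the members (28.7%) and in 33.8% of all 32851 windows. It was present for 2 of the 10 genes with a window that fell, Sema4a and Sema4d, for 1 of the 8 that rose, Efnb2, and for 12 of the 33 that did not pass. A match describes the letters of the window and is not evidence of binding. Of the called genes, Sema3c, Sema3e, Plxna3 and Plxnb1 lacked the motif, Sema4a and Efnb2 held it, and Efnb3 had no window. Shown as examples are the windows of 2 called genes without the motif, Sema3c at chr5:17574566-17574815 and Sema3e at chr5:14025026-14025275, both on the plus strand. Beside them are those of 2 called genes with it, Sema4a at chr3:88459102-88459351 and Efnb2 at chr8:8661243-8661492, both on the minus strand. Each is printed 5′ to 3′ in the direction of the gene, and capitals mark the motif.
Sema3c: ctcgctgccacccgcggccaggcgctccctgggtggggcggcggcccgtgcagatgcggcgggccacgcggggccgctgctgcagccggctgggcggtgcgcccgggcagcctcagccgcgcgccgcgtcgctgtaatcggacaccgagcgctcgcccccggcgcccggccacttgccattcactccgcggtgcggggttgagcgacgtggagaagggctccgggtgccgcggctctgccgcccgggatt
Sema3e: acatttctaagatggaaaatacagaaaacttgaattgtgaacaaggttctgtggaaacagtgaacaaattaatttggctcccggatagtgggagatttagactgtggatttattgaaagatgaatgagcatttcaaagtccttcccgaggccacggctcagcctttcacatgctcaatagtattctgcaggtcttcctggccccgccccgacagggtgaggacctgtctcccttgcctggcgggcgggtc
Sema4a: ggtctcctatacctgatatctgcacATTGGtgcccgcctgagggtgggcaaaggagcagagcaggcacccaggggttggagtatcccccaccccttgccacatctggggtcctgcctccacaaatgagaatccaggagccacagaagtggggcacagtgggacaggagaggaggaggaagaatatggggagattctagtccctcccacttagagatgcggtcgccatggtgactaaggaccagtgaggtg
Efnb2: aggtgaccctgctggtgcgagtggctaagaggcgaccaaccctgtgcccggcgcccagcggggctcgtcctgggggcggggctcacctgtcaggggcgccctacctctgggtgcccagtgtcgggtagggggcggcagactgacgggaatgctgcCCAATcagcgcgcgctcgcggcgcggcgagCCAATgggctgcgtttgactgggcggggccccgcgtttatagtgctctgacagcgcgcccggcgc
The Sema3c window was 78.4% G and C and the Sema3e window 48%, so that these members of 1 class differed in base composition while neither held the motif. Sema4a had 4 start sites in the table, of which 1 held the motif, as ATTGG 225 bases before the start. The Efnb2 window held 2 copies in the same direction, 95 and 65 bases before the start.

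Of the secreted class 3 semaphorins 3 of the 6 tested fell, beside 15.7% of all genes tested. Sema3c, a secreted cue that signals through neuropilins and plexins, gave -3.42, -3.36 and -3.09 on the control arrays and -4.55, -4.49 and -4.59 on the knockdown arrays. The 3 knockdown arrays lay close together, each more than 1 log2 unit below every control array. The change was -1.25 (SE 0.10), 2.39-fold lower, with a limma adjusted p of 0.00166. A second Sema3c probe was well above background on all 3 control arrays and on no knockdown array, at -5.83 ± 0.26 and -6.34 ± 0.28. Its change of -0.51 (SE 0.20) did not pass (limma adjusted p 0.130). The bound of 1.08-fold lower from its means leaves out the spread between arrays, so it sets no lower limit. With normexp background correction and the 75th percentile, the Sema3c change shrank to -0.54, which passed but was under 1.5-fold.

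Sema3e, which can bind plexin-D1 without a neuropilin, gave -2.38, -2.47 and -2.52 on the control arrays and -3.54, -3.29 and -3.44 on the knockdown arrays. The groups were well apart, with a change of -0.97 (SE 0.08), 1.95-fold lower, and a limma adjusted p of 0.00180. Under normexp with the 75th percentile it was -0.58, past the test but under 1.5-fold. Sema3f, a repellent that acts through neuropilin-2, gave -1.45, -1.38 and -1.48 against -1.91, -1.85 and -1.95. Its change of -0.46 (SE 0.05, limma adjusted p 0.00391) was under 1.5-fold, and its groups did not overlap. Sema3a, the best known repellent of the class, was well above background on only 3 of 6 arrays and had a change of -0.01 (SE 0.34). Sema3b (0.25, SE 0.13) and Sema3g (0.16, SE 0.05) did not pass either, although the Sema3g arrays did not overlap between groups, and Sema3d was well above background on none of the arrays and was not tested.

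Among the semaphorins attached to membranes, 2 fell and 1 rose. Sema4a, a transmembrane semaphorin studied in the retina and in immune cells, gave 1.94, 1.91 and 1.84 on the control arrays and 1.29, 1.23 and 1.25 on the knockdown arrays. The spread within each group was small beside the gap, and the change of -0.64 (SE 0.05, limma adjusted p 0.00141) was 1.56-fold. Under normexp with quantile normalization the Sema4a change was -0.55, which passed but was under 1.5-fold. Sema4d, a ligand of plexin-B1, gave 1.86, 1.91 and 1.89 against 1.57, 1.53 and 1.58, a fall of 0.33 on the log2 scale (SE 0.04, limma adjusted p 0.00601) with no overlap. Sema4b gave 1.29, 1.25 and 1.28 against 1.59, 1.51 and 1.45, a change of 0.24 (SE 0.05, limma adjusted p 0.0279). Sema4b did not pass without control array 1, 2 or 3 or knockdown array 1 or 2, with changes of 0.21 to 0.25.

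Sema4c had a change of 0.14 (SE 0.08, limma adjusted p 0.271). Sema4g, Sema6a, Sema6b, Sema6c, Sema6d and Sema7a were well above background on all arrays and did not pass, with changes from -0.22 for Sema6c to 0.37 for Sema6a. Sema6a came nearest to the threshold, at a limma adjusted p of 0.0553, with all 3 knockdown arrays above all 3 controls. Sema5b was well above background on 1 array only, at a change of -0.59 (SE 0.54). Sema4f and Sema5a were well above background on no array and were not tested.

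Plexins are the signalling receptors of the semaphorins, and their members moved in different directions. Plxna3, a partner of neuropilins in the response to class 3 semaphorins, gave 0.44, 0.40 and 0.36 on the control arrays and -0.38, -0.18 and -0.26 on the knockdown arrays. All knockdown arrays were below all control arrays, and the change of -0.67 (SE 0.07, limma adjusted p 0.00278) was 1.60-fold. Plxnb1, the receptor of Sema4d, gave -2.66, -2.42 and -2.38 against -1.58, -1.86 and -1.77, and so moved the other way. Its change was 0.75 (SE 0.11, limma adjusted p 0.00936), 1.68-fold higher, and its arrays spread more widely within each group than those of Plxna3. Under normexp the Plxnb1 change was 0.50 with the 75th percentile and 0.46 with quantile normalization, which passed but were under 1.5-fold. Plxnd1, the receptor of Sema3e, gave 1.47, 1.48 and 1.53 against 1.30, 1.27 and 1.26, a change of -0.22 (SE 0.04, limma adjusted p 0.0202). Plxnd1 did not pass when any 1 of the 6 arrays was left out (control array 1, 2 or 3, or knockdown array 1, 2 or 3), with changes of -0.20 to -0.23. A second Plxnd1 probe, well above background on all arrays, had a change of -0.13 (SE 0.06, limma adjusted p 0.219) with overlapping groups. With the mean of both probes Plxnd1 did not pass.

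Plxna1, Plxna4, Plxnb2 and Plxnc1 did not pass, with changes from -0.13 for Plxna1 to 0.19 for Plxnb2 (SE 0.06, limma adjusted p 0.0686). Plxnb3 read -5.60, -6.61 and -5.66 on the control arrays and -6.57, -1.98 and -4.54 on the knockdown arrays. Knockdown array 2 stood far above the other 5, so that the mean change of 1.60 had an SE of 1.20 and did not pass (limma adjusted p 0.403). Plxna2 was well above background on none of the arrays and was not tested.

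The neuropilins, which join plexins to bind class 3 semaphorins, did not move together. Nrp1, also a co-receptor for vascular endothelial growth factor, gave -0.93, -0.80 and -0.73 on the control arrays and -0.11, -0.29 and -0.37 on the knockdown arrays. It rose by 0.56 (SE 0.09, limma adjusted p 0.0129), 1.48-fold, with no overlap. The brightest probe of Nrp2 gave a change of -0.08 (SE 0.06, limma adjusted p 0.370). Another Nrp2 probe gave -0.46, -0.44 and -0.53 against -0.86, -0.91 and -0.78, a change of -0.38 (SE 0.06) that passed at a limma adjusted p of 0.00920.

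Set beside their textbook partners, some ligands and receptors of the semaphorin system moved alike and others did not. Sema3e fell by 0.97 and the brightest probe of its receptor Plxnd1 by 0.22 on the log2 scale, while the other Plxnd1 probe did not pass. Sema4d fell by 0.33, while its receptor Plxnb1 rose by 0.75. Sema3f and Plxna3 fell by 0.46 and 0.67, while 1 of the Nrp2 probes passed and the brightest did not. These are values of the same 6 arrays, and no relation between partners was tested.

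**Figure D2:**
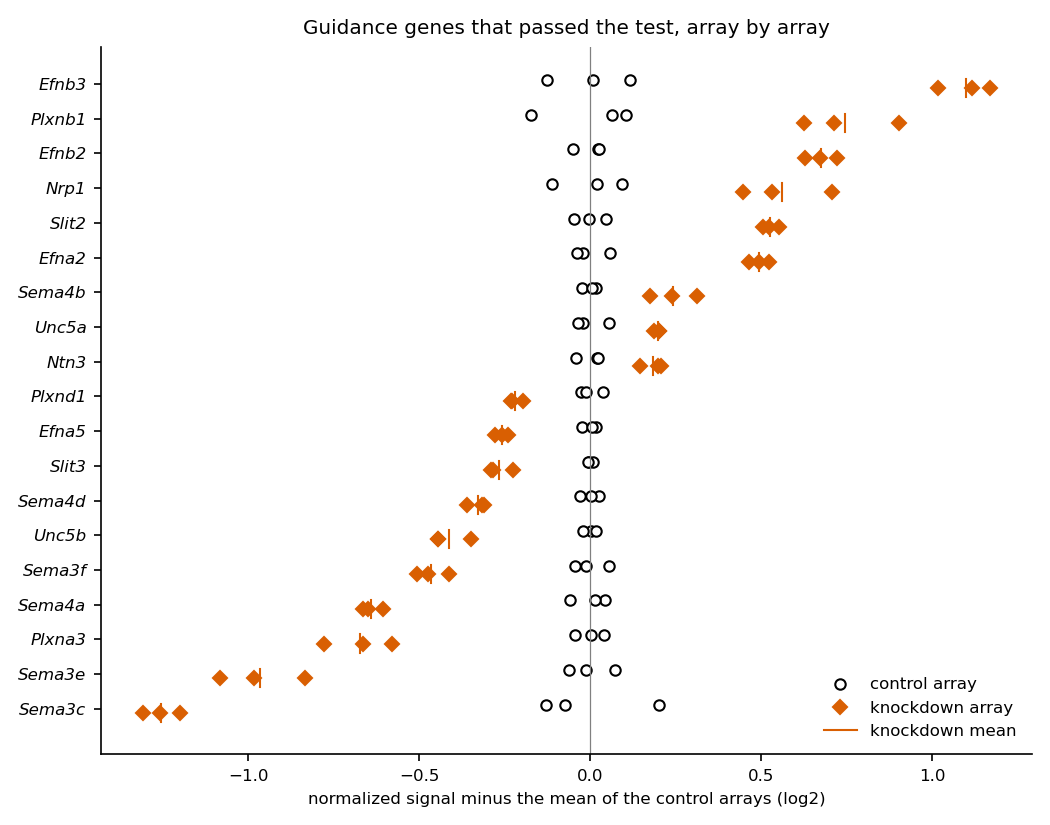
Level of each guidance gene that passed the test on each array, as the log2 difference from the mean of the 3 control arrays (open circles control, orange diamonds knockdown, bar the knockdown mean); Unc50 is left out. The knockdown arrays of Sema3c lay near -1.25 and those of Efnb3 near 1.10, and for every gene shown the groups did not overlap.

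Of the ephrin-B genes 2 of 3 rose, beside 15.7% of all genes tested, and Efnb1 did not pass. Efnb3, a transmembrane ephrin that can itself signal backwards into the cell that carries it, gave -2.90, -2.77 and -2.66 on the control arrays and -1.66, -1.61 and -1.76 on the knockdown arrays. Every knockdown array was well above every control array, and the change of 1.10 (SE 0.08, limma adjusted p 0.00136) was 2.14-fold. Efnb2, known as a marker of arterial endothelium and as a ligand of EphB receptors, gave -4.07, -4.00 and -4.00 against -3.36, -3.40 and -3.30 on its brightest probe. The change was 0.67 (SE 0.05, limma adjusted p 0.00130), 1.60-fold higher. It passed but was under 1.5-fold after quantile normalization (0.58) and under normexp with the 75th percentile (0.33) or quantile normalization (0.27). A second Efnb2 probe, also well above background on all arrays, gave -3.82, -3.95 and -4.18 against -4.23, -4.05 and -4.62. That probe pointed the other way, at -0.31 (SE 0.18, limma adjusted p 0.282), and with the mean of both probes Efnb2 did not pass, at 0.18. Efnb1 had a change of -0.07 (SE 0.07).

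The ephrin-A genes, whose proteins are tethered to the membrane by a lipid anchor, gave 1 gene in each direction. Efna2 gave -2.43, -2.35 and -2.45 against -1.94, -1.89 and -1.91, a change of 0.49 (SE 0.05, limma adjusted p 0.00263) with no overlap. Efna5, which repels retinal axons in the visual map, gave 3.84, 3.88 and 3.87 against 3.61, 3.59 and 3.62, a change of -0.26 (SE 0.04, limma adjusted p 0.0105). Efna1, Efna3 and Efna4 did not pass, with changes of 0.32, -0.26 and 0.05.

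None of the Eph receptor kinases passed. Epha5 and Ephb3 each had a change of -0.01 (SE 0.08). The other EphA genes tested, Epha1, Epha3, Epha7, Epha8 and Epha10, had changes from -0.42 for Epha7 (SE 0.21) to 0.38 for Epha10 (SE 0.45). Of these, Epha3, Epha8 and Epha10 were well above background on only 3, 4 and 2 of the 6 arrays. Ephb2, Ephb4 and Ephb6 had changes of -0.19, -0.25 and 0.07. Ephb2 came nearest to the threshold, at a limma adjusted p of 0.0987, with all knockdown arrays below all controls. Epha2, Epha4, Epha6 and Ephb1 were well above background on none of the arrays and were not tested.

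Among the Slit ligands, which repel axons through Robo receptors, 1 gene rose and 1 fell. Slit2 gave 0.23, 0.28 and 0.33 on the control arrays and 0.83, 0.80 and 0.78 on the knockdown arrays. It rose by 0.53 (SE 0.05, limma adjusted p 0.00198), 1.44-fold, with a gap between the groups wider than the spread within them. Slit3 gave 2.60, 2.61 and 2.60 against 2.38, 2.31 and 2.32, a change of -0.27 (SE 0.04, limma adjusted p 0.0107). Slit1 was dropped from the test because the scanner software marked its spot on knockdown array 2 as an outlier. Its other arrays gave -0.90, -0.98 and -0.91 against -1.39 and -1.49, and with the marked spot kept, at 1.10, its change was 0.34 (SE 0.74) and did not pass. Robo1, Robo2 and Robo3 were well above background on no array and were not tested, and Robo4, an endothelial member, was tested but was well above background on none (change -0.21, SE 0.40).

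Netrins are secreted cues, and the netrin-G proteins are relatives anchored to the membrane. Ntn3 gave 0.71, 0.71 and 0.65 against 0.90, 0.89 and 0.83, a change of 0.18 (SE 0.04, limma adjusted p 0.0402). Ntn3 did not pass without control array 1, 2 or 3 or knockdown array 1, 2 or 3, with changes of 0.16 to 0.20. Ntng1 gave -6.11, -5.29 and -6.02 against -5.15, -4.83 and -5.21, near the background of the arrays. Its change of 0.74 (SE 0.25) did not pass (limma adjusted p 0.0994), and neither did those of Ntn5 (-0.34, SE 0.32) and Ntng2 (-0.15, SE 0.13). Ntn1, the founding netrin of vertebrates, and Ntn4 were well above background on none of the arrays and were not tested.

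Of the netrin receptors, Unc5b fell and Unc5a rose. Unc5b, a receptor for repulsion that also acts in vessels, gave 5.57, 5.55 and 5.59 on the control arrays and 5.22, 5.12 and 5.12 on the knockdown arrays, a change of -0.41 (SE 0.05, limma adjusted p 0.00442). Unc5a gave 2.86, 2.94 and 2.85 against 3.08, 3.09 and 3.07, a change of 0.20 (SE 0.04, limma adjusted p 0.0321). Unc5a did not pass without control array 1, 2 or 3 or knockdown array 1, 2 or 3, with changes of 0.18 to 0.22. Unc5c (0.04, SE 0.07) and Neo1 (0.15, SE 0.06) did not pass, and Unc5d was well above background on none of the arrays.

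Dcc, the receptor for attraction to netrin-1, gave 4.96, 5.66 and 5.66 on the control arrays and 5.58, 6.35 and 6.44 on the knockdown arrays. In each group array 1 lay well below the others, and the groups overlapped. The change of 0.70 (SE 0.32) did not pass (limma adjusted p 0.186). Of 18 alternatives, Dcc was called higher in 2, those with an intensity trend and with the replicate number as a block. The other Dcc probes were well above background on no array. Among the 4 arrays of the same slide row the Dcc change was 0.15.

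Of the genes that matched by spelling only, Unc50, a membrane protein linked to the Golgi apparatus, gave 3.73, 3.77 and 3.80 against 3.48, 3.43 and 3.53, a change of -0.29 (SE 0.05, limma adjusted p 0.0140). Unc50 did not pass without control array 2 or knockdown array 1 or 2, with changes of -0.26 to -0.29. Unc5cl was well above background on none of the arrays and was not tested.

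**Figure D3:**
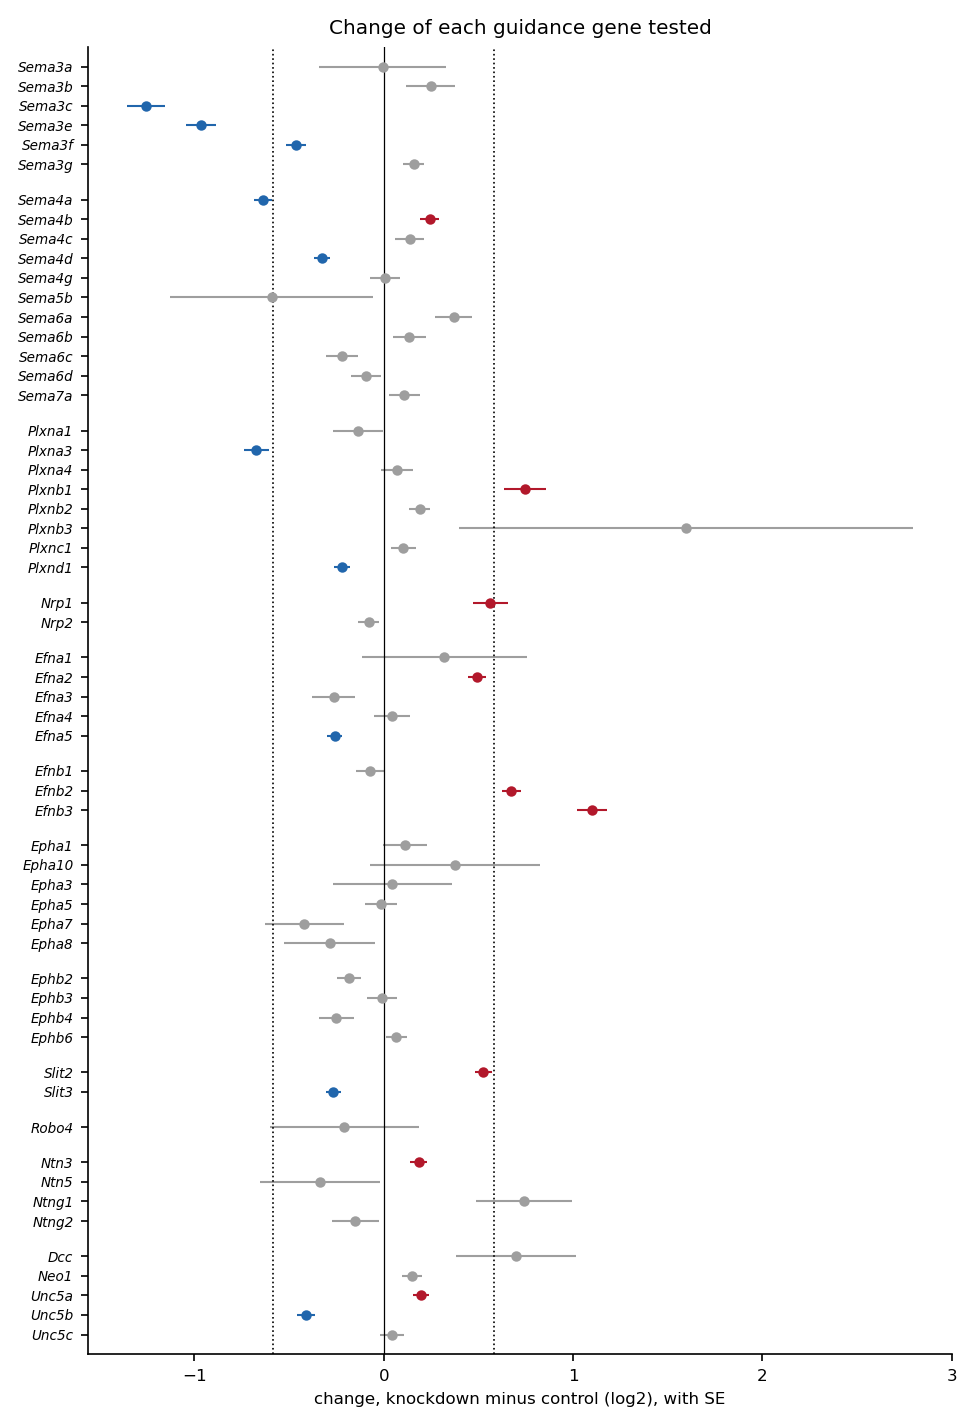
Change of each guidance gene tested, as the log2 level on 3 knockdown arrays minus that on 3 control arrays, with its standard error and grouped by family (blue lower and red higher at a limma adjusted p below 0.05, grey not passed, dotted lines 1.5-fold); Unc50 is left out. Sema3c at -1.25 and Efnb3 at 1.10 were the outermost genes that passed, while Plxnb3 at 1.60 lay farther out with the widest error bar and did not pass.

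The array held 95 probes for the members, and 19 members had several. Of 12 members with several tested probes, 2 had another probe that passed while the brightest did not, Nrp2 and Plxnc1. The other Plxnc1 probe gave -2.08, -2.03 and -2.12 against -1.56, -1.74 and -1.81, a change of 0.37 (SE 0.08, limma adjusted p 0.0276), while the brightest gave 0.10 (SE 0.07, limma adjusted p 0.326). Which transcripts the probes of a gene detect was not analysed here.

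**Figure D4:**
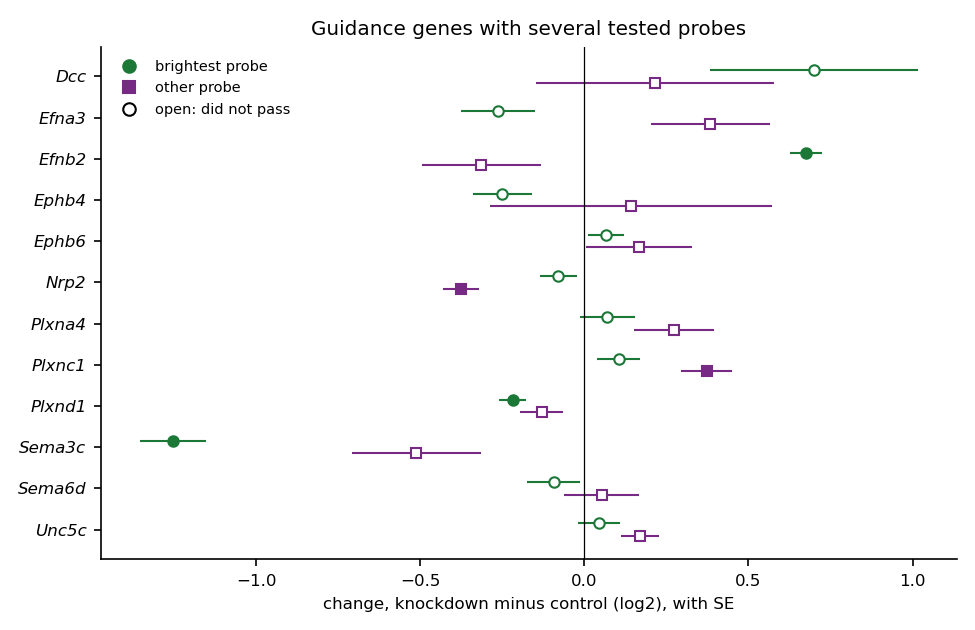
Change of each tested probe, as the log2 level on knockdown minus control arrays with its standard error, for the 12 guidance genes with several tested probes (green circles the brightest probe, purple squares the other, open symbols did not pass). The probes of Efnb2 lay on opposite sides of 0 at 0.67 and -0.31, and both Sema3c probes lay below 0.

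The arrays lay in 2 rows of the slide. Row 1 held the 3 control arrays and knockdown array 1, and row 2 held knockdown arrays 2 and 3. In row 1 alone, which compares knockdown array 1 with the 3 controls, the changes were -1.26 for Sema3c, -1.08 for Sema3e, -0.61 for Sema4a, -0.78 for Plxna3, 0.90 for Plxnb1, 0.67 for Efnb2 and 1.12 for Efnb3. Their direction was fixed by the choice of members whose groups do not overlap. With a single knockdown array in that row, no gene of all tested passed the limma adjustment, while 4892 had an unadjusted p below 0.05. With the row as a block, the changes rest on that same array and equal those of row 1, since row 2 holds no control. The limma fit with the block takes its spread from the 3 control arrays and from knockdown arrays 2 and 3. Knockdown array 1, as the only knockdown array in row 1, is fitted exactly and adds nothing to that spread. In that fit 6 members fell and 6 rose at any size, beside 11 and 9 without the block. Sema4b, Sema4d, Plxnd1, Efna5, Slit3, Ntn3, Unc5a and Unc50 no longer passed.

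A further list held 72 other genes of the guidance pathways, of which 69 were tested. It took in signalling genes such as collapsin response mediator proteins, small GTPases with their regulators and actin regulators, and also surface or secreted partners such as adhesion molecules, Rgma, Rgmb, Draxin, Gpc1 and the Flrt genes. Of these, 19 fell (27.5%) and 9 rose (13.0%), beside 15.7% of all genes tested in each direction, and 41 did not pass. The median change was -0.03. With the minimum of 1.5-fold, 3 were called lower (4.35%, background 4.99%) and 2 called higher (2.90%, background 3.91%). Chl1, Dock1 and Pak3 were not tested.

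The called genes of this list work at different steps. Tiam1, an activator of Rac, gave -1.17, -0.99 and -1.07 on the control arrays and -2.09, -2.11 and -2.23 on the knockdown arrays, a change of -1.07 (SE 0.07, limma adjusted p 0.00101). Adam10, a protease that cleaves ephrins and other surface proteins, gave 1.91, 1.87 and 1.97 against 0.95, 0.81 and 0.85, a change of -1.05 (SE 0.06, limma adjusted p 0.000665). For both genes the gap between the groups was several times wider than the spread within them. Gsk3b, a kinase that phosphorylates collapsin response mediators, gave 3.92, 3.86 and 3.91 against 3.17, 3.18 and 3.15, a change of -0.73 (SE 0.04, limma adjusted p 0.000707). Arhgap35, a GTPase activating protein, gave 2.84, 2.87 and 2.85 against 3.51, 3.42 and 3.46, a change of 0.61 (SE 0.04, limma adjusted p 0.00127). Limk2, a kinase that inactivates cofilin, gave -0.76, -0.60 and -0.72 against -0.15, -0.01 and -0.14, a change of 0.59 (SE 0.07, limma adjusted p 0.00430). Limk2 was under 1.5-fold without control array 1 or 3 or knockdown array 2, at 0.56, 0.58 and 0.55. With slide row as a block it did not pass, at 0.54.

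Below 1.5-fold, the collapsin response mediators Crmp1, Dpysl2 and Dpysl3 fell, with changes of -0.39, -0.33 and -0.37 (SE 0.04, 0.05 and 0.05). Dpysl4 and Dpysl5 of the same family did not pass, with changes of -0.20 (SE 0.35) and -0.03 (SE 0.08). The GTPases Rras, which plexins switch off, and Rhoa had changes of -0.58 and -0.52 (SE 0.05 for each). Of the Rnd GTPases, which bind plexins, Rnd1 fell by 0.47 and Rnd2 rose by 0.55 on the log2 scale. The Slit-Robo GTPase activating protein gene Srgap3 had a change of -0.45 (SE 0.04), and the actin-binding Ablim1 and the kinase Abl1 had changes of 0.55 and 0.45. The limma adjusted p of the genes of this paragraph that passed ran from 0.00180 to 0.0103.

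**Figure D5:**
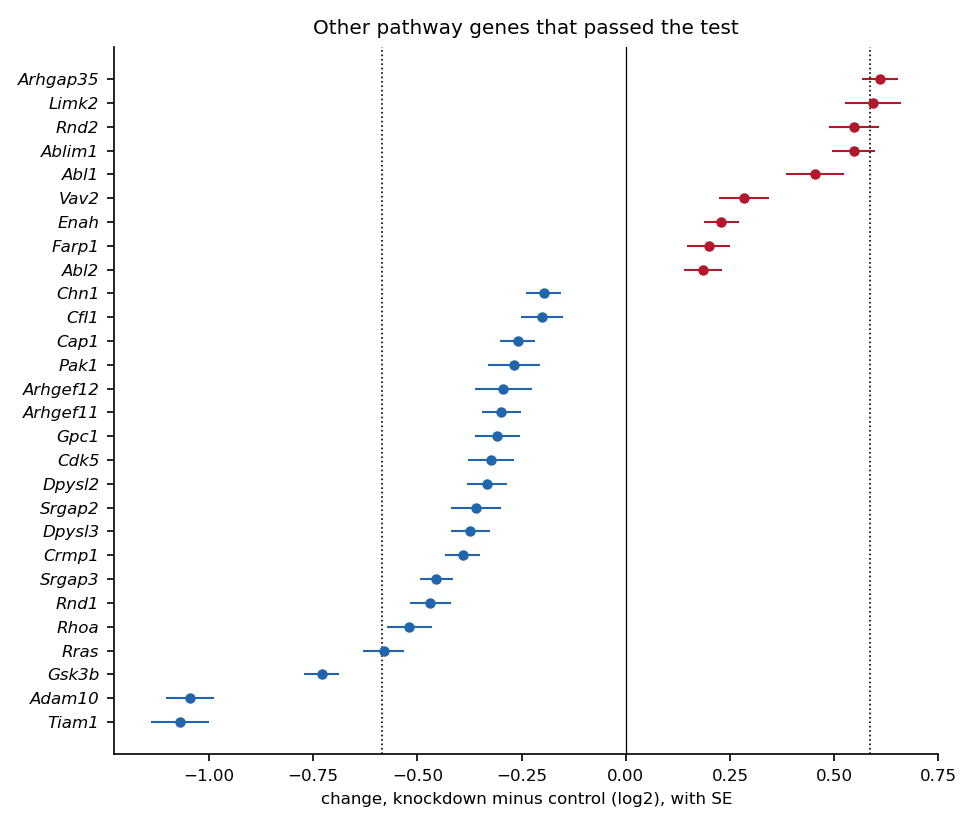
Change of each gene of the further pathway list that passed the test, as the log2 level on 3 knockdown arrays minus that on 3 control arrays with its standard error (blue lower, red higher, dotted lines 1.5-fold). The 19 genes that fell reached -1.07 for Tiam1, and the 9 that rose reached 0.61 for Arhgap35.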

How the data were processed

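RNA of transfected cells was hybridised to 6 single-colour Agilent mouse arrays, 3 per group, grouped by the sample titles. The deposited scanner tables, written by Agilent Feature Extraction 10.10.1.1, held background-subtracted, dye-normalized processed signals as linear intensities. The authors also deposited a table of log2 values, which matched the scanner values scaled to the 75th percentile with a constant per probe removed (median absolute difference 0.00247 over 43557 single-spot probes). Its column medians ran from -0.0117 to 0.0181, and how the constant was set is not given in the sources used here.

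From the intensities, log2 minus the 75th percentile of each array was computed here, control spots and outlier-flagged spots were left out, and spots of a probe were averaged. The 75th percentile lay at 718 to 754 and 61.9% to 66.2% of spots were well above background. The number of arrays limits the precision. No spot was saturated. Correlations across probes were 0.989 to 0.994 within groups and 0.987 to 0.990 between them, and no pair of arrays shared all values.

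Probes above the 20th percentile on all 3 arrays of at least 1 group were tested, 42208 of 55681, with limma 3.58.1 in R 4.3.3 (lmFit, eBayes, two-sided) and Benjamini-Hochberg adjustment over all of them. Genes were named through the RefSeq accessions of the array design. Of 26392 probes with a RefSeq mRNA accession, 25869 matched the given RefSeq table of GRCm38.p6, while the array's own annotation was on mm9. In all, 26582 probes had a gene symbol, so some were named through other accessions. The brightest tested probe stood for a gene. One further symbol of the rule, an antisense RNA, had no probe.

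Named genes were the NF-Y subunits, every member that passed, the member of each family with the highest mean signal over the 6 arrays and the called genes of the further pathway list, and other members were named to account for them. Members and lists were chosen with earlier results of these data known. The script of the test was checked on simulated data. Alternatives were quantile normalization, normexp background correction (offset 50), the deposited log2 table, other filters, the mean of probes, other minimum folds, an intensity trend, array weights, blocks for replicate number and slide row, and each array left out. The mean signal planned for normexp was not in the tables, and the median signal was used. That choice, keeping flagged spots and slide row 1 alone were chosen after seeing the data.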

Additional observations from a re-analysis of the deposited data

How the results depend on the processing

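No named gene turned its direction while called under any alternative. Of the 18 alternatives per gene, Plxna3 and Efnb3 were called in each. Under normexp with the 75th percentile, 2 guidance genes were called lower and 1 higher, beside 4 and 3, since Sema3c (-0.54), Sema3e (-0.58), Plxnb1 (0.50) and Efnb2 (0.33) passed but were under 1.5-fold, and 1 gene of the further pathway list was called higher. Under normexp with quantile normalization 3 guidance genes were called lower, without Sema4a (-0.55), and 1 was called higher, without Plxnb1 (0.46) and Efnb2 (0.27). Over all genes, 276 and 284 were called higher under the 2 normexp settings, beside 645. The cause was not tested. Requiring 2-fold left 1 guidance gene lower and 1 higher, 0 pathway genes higher, and 286 lower and 182 higher of all genes. With no minimum, 11 guidance genes were lower and 9 higher, 19 pathway genes lower and 9 higher, and 2591 lower and 2595 higher of all genes. With the mean of probes 4 pathway genes were called higher, and with array weights 1.

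Leaving out each array in turn gave 4 to 5 guidance genes called lower, 3 to 4 called higher, 9 to 11 passed lower and 6 to 7 passed higher, with 3 to 4 pathway genes called lower and 1 to 3 higher. A single pathway gene was called higher without control replicate 1 or 3 or knockdown replicate 2. All genes gave 746 to 831 lower and 550 to 604 higher.

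With the replicate number as a replicate block, 7 guidance genes passed lower and 5 higher, beside 11 and 9. Plxnb1 and Nrp1 (limma adjusted p 0.0635 and 0.0757; 0.000407 to 0.0635 and 0.000444 to 0.0757 over their alternatives) were among those that did not pass. The numbers are those of the titles, and the numbers in the names of the scanner tables differ from them. Deviations of same-numbered arrays correlated at 0.016, 0.0658 and 0.00226, and those of other pairs at -0.0805 to 0.0636. All were small, so they do not decide whether the numbers pair the arrays. With slide row as a block, which rests on 1 knockdown array, 6 passed lower.

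Of the members, 16 were well above background on no array, and of these only Robo4 was tested. How precision depends on signal over background was not tested.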
